A study of Mus musculus with 6 samples.

Results

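The 10 genes described here encode the 5 NF-κB subunits (Nfkb1, Nfkb2, Rel, Rela and Relb) and 5 proteins that restrain or modify NF-κB (Nfkbia, Nfkbib, Nfkbie, Nfkbiz and Tnfaip3). They were taken as every array probe whose RefSeq accession belongs to 1 of these 10 symbols, which gave 15 probes, among 22911 gene symbols with a probe on the arrays. Of the 15 probes, 8 probes for 7 genes were bright, meaning that their log2 intensity averaged 8 or more over the arrays, and 6 probes were dim. The last probe, the brighter of the pair for Relb, had a spot on 1 WT array that the scanner software marked as unusable. Rel and Nfkbiz were read by dim probes alone, and no member was without a probe.

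The arrays measured total RNA of TEa cells, CD4+ T cells with a transgenic T cell receptor (Vα2+Vβ6+) that recognises a donor peptide, recovered from the spleens of mice given a heart transplant. In the Irf4 KO blockade group, the cells came from Irf4-/- TEa mice and the recipients received blocking antibodies to PD-L1 (200 μg) and to CTLA-4 (9D9, 200 μg) on days 0, 3 and 5. The Irf4 KO IgG group had the same cells, with 400 μg Rat IgG on those days in place of the antibodies. The WT IgG group had WT TEa cells, labelled as Rat IgG treated, with no dose given for them. All 3 groups share the rest: the donor cells were CD45.2+, were put into CD45.1+ B6.SJL hosts on day -1, met a Balb/c heart graft at day 0 and were taken from the spleen by a further sort at day 6. The hosts kept their own lymphocytes, the labels name no blockade-treated WT cells, and how many recipients were pooled for an array is not stated. Each group had 2 arrays, said to come from independent experiments, so a p-value measures the spread between 2 arrays a group, with 3 residual degrees of freedom in all.

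NF-κB proteins work as dimers that IκB proteins hold in the cytoplasm, and signals from the T cell receptor, costimulatory receptors and TNF-family receptors lead to destruction of the IκB proteins and release of the dimers into the nucleus. Nfkbia (IκBα), Nfkbie (IκBε) and Tnfaip3 (A20) are textbook NF-κB target genes, so their transcripts rise after the pathway is engaged and their proteins then shut it down. Irf4, the gene deleted in the donor cells, is itself induced through NF-κB in activated T cells. IRF4 supports the expansion and effector function of T cells, and PD-L1 and CTLA-4 belong to the checkpoints that hold them back.

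Promoter sequence was looked up for the members because several of them are known to be driven by the pathway they regulate. RefSeq promoters (GRCm38.p6), each running from 250 bases before to 50 bases after a transcription start, were found for 7 of the 10 genes, 10 promoters in all, and Nfkb1, Relb and Nfkbiz had no entry. Matches to the κB consensus were searched on both strands, and 6 promoters of 4 genes (Nfkb2, Rel, Nfkbia and Tnfaip3) held at least 1 match, against 5.84% of 32534 promoters of the same length. The promoters of Rela, Nfkbib and Nfkbie and the second Tnfaip3 promoter held none. The ETS-IRF composite motif, which IRF4 can bind together with ETS factors, occurred in none of the 10, against 2.73% of all promoters. The AP-1 letters TGANTCA occurred in 3, 1 each of Nfkb2, Nfkbie and Tnfaip3, against 7.79% of all promoters, and overlapped no κB match. A match is a string of letters and not a measured binding site. The promoters shown are those of the genes whose bright probes differed most between Irf4 KO IgG and WT cells, with the κB matches in capitals: the first start site of Nfkb2 (chr19:46304487-46304786, plus strand), Nfkbia (chr12:55492598-55492897, minus strand) and the first start site of Tnfaip3 (chr10:19015361-19015660, minus strand).
Nfkb2: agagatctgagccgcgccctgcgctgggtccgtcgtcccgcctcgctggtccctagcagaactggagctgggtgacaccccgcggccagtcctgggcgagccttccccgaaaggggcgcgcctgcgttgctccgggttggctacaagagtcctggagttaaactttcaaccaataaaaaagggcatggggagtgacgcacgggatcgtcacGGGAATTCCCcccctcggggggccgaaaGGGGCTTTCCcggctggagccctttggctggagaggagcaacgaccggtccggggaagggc
Nfkbia: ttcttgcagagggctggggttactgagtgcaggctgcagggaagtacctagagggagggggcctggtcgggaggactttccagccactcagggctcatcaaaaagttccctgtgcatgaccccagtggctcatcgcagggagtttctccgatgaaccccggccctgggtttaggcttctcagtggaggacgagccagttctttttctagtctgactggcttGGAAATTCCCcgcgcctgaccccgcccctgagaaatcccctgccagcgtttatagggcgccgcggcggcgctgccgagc
Tnfaip3: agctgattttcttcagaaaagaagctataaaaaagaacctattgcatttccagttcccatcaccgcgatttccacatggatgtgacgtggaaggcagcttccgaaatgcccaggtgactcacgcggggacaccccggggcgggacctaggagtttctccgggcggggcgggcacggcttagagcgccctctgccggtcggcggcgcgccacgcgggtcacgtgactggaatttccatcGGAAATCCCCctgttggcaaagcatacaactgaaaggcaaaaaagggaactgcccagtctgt
The matches began 39 and 11 bases before the Nfkb2 start, 29 bases before the Nfkbia start and 12 bases before the Tnfaip3 start. The match at -39 of Nfkb2 reads the same on both strands. The other Nfkb2 starts shared a single match, because their promoters overlap, and Rel held a pair of matches that overlap each other and begin 92 and 91 bases before its start.

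Several facts about the arrays bear on every value below. The T cell identity genes (12 of 12 bright) matched the sorted cell type. Probes well above background made up 39.97% and 34.8% of all probes for the blockade arrays, 65.8% and 75.2% for the Irf4 KO IgG arrays, and 37.6% and 40.8% for the WT arrays, so the Irf4 KO IgG arrays were brighter at the weak end. The median intensity of the dim probes was 3.76 and 4.69 for the blockade arrays, 29.4 and 48.9 for the Irf4 KO IgG arrays, and 5.04 and 4.69 for the WT arrays. Bright probes were therefore compared after quantile normalisation among themselves, and dim probes are given as unscaled intensities with no test. Irf4 itself went against the label of a knockout: its bright probe read 2071 and 1703 for the blockade arrays, 2128 and 3073 for the Irf4 KO IgG arrays and 673 and 1068 for the WT arrays, and was 1.44 (log2) higher in Irf4 KO IgG than in WT cells (limma adjusted p = 0.0182, with 0.0417 to 0.102 when 1 array was left out). Whether that probe lies inside the deleted stretch is not given in the sources used here, so it does not check the labels, and the groups below are named as labelled.

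Markers of other cell types are set beside the results here, with sums of intensities that were not scaled between arrays. The B cell, plasma cell and myeloid lists summed highest on both Irf4 KO IgG arrays. The summed intensity of 15 B cell genes was 834 and 827 for the blockade arrays, 5176 and 26294 for the Irf4 KO IgG arrays and 666 and 617 for the WT arrays, that is, relative to the summed T cell identity genes, 0.250% and 0.313% in blockade, 1.79% and 5.54% in Irf4 KO IgG and 0.172% and 0.131% in WT. Of the 15, the number well above background on both arrays of a group was 5 in blockade, 13 in Irf4 KO IgG and 5 in WT, and none was undetected on all 6 arrays. Among all probes, 65.8% and 75.2% were well above background on the Irf4 KO IgG arrays, against 34.8% to 40.8% on the other arrays. The 3 B cell genes with a bright probe are all of MHC class II presentation. In Irf4 KO IgG, H2-Ab1 was 4.27 (limma adjusted p = 0.0377), H2-Eb1 4.33 (adjusted p = 0.0431) and Cd74 3.69 (adjusted p = 0.0470) higher (log2) than in WT cells. Between blockade and Irf4 KO IgG, H2-Ab1 differed by -4.43 and H2-Eb1 by -4.89 (adjusted p = 0.0475 each). Over all bright probes, 1.41% were called higher in the first comparison and 0.460% lower in the second. All 3 genes read below 256, the bright limit in intensity, on every WT and blockade array. They were bright only through the Irf4 KO IgG arrays, so their calls rest partly on that filter. The other B cell genes had no test. Leaving out either WT or either blockade array ended each of these calls. For 18 genes of monocytes, macrophages and neutrophils the sums were 4513 and 7491 for the blockade arrays, 9201 and 71715 for the Irf4 KO IgG arrays and 4448 and 5326 for the WT arrays. Relative to the summed T cell identity genes these were 1.35% and 2.84%, 3.18% and 15.1%, and 1.15% and 1.13%. S100a9 alone read 1333 on Irf4 KO IgG array 1 and 44805 on array 2. The 8 erythroid and platelet genes summed to 20462 and 12271 in blockade, 2649 and 98523 in Irf4 KO IgG, and 298 and 1323 in WT, so that Irf4 KO IgG array 1 lay below both blockade arrays. The 5 plasma cell genes summed to 60.5 and 176 in blockade, 378 and 1875 in Irf4 KO IgG and 77.6 and 145 in WT. None of the 5 had a bright probe. Of all dim probes, 63.1% also had both Irf4 KO IgG arrays above both WT arrays in unscaled intensity. The part of that difference between arrays in the plasma cell sums was not tested. The 9 dendritic cell genes summed to 7394 and 4833 in blockade, 24046 and 13255 in Irf4 KO IgG and 7588 and 13956 in WT. Most of the dendritic cell sum was Siglech, at 7367 and 4738 in blockade, 23793 and 12858 in Irf4 KO IgG and 7552 and 13923 in WT. Of the 9, the number well above background on both arrays was 1 in blockade, 5 in Irf4 KO IgG and 1 in WT. The Irf4 KO IgG count stands beside 65.8% and 75.2% of all probes on those arrays. The 8 genes of CD8 T and NK cells summed to 15676 and 10527 in blockade, 10448 and 16802 in Irf4 KO IgG and 4231 and 5361 in WT. Among them Eomes, a transcription factor gene, was 2.94 higher in Irf4 KO IgG (adjusted p = 0.0103) and 2.18 higher in blockade (adjusted p = 0.0140) than in WT cells. Nkg7, a gene of cytotoxic granules that made up most of these sums, was 1.58 (adjusted p = 0.0227) and 1.82 (adjusted p = 0.0190) higher. The remaining bright gene, Cd8b1, differed from WT by -0.40 in Irf4 KO IgG (limma adjusted p = 0.480) and by 0.44 in blockade (adjusted p = 0.506). Of the 8, the number well above background on both arrays was 4 in blockade, 7 in Irf4 KO IgG and 4 in WT, again beside those shares of all probes. With 1 array left out, the highest adjusted p was 0.0541 and 0.147 for Eomes and 0.128 and 0.114 for Nkg7. Immediate early and handling stress genes, which include known NF-κB targets, had a median difference of 0.35 (log2) between Irf4 KO IgG and WT cells, with 10 of 12 bright genes positive and 1, the phosphatase gene Dusp1, past the threshold (2.96, adjusted p = 0.0148, and 0.0879 and 0.0741 without WT array 1 and array 2). Of all bright probes 47.6% were positive in that comparison. At an unadjusted limma p under 0.05 there were 3 of 12 of these genes, against 23.3% of all bright probes. Between blockade and Irf4 KO IgG cells the same genes had a median of -0.67, with 1 of 12 positive, against 53.3% of all bright probes. There 0 were past the threshold (6 of 12 at an unadjusted p under 0.05, against 28.6% of all bright probes). The part of these cells and genes in the NF-κB results was not tested. Values without 1 array do not test it, because the Irf4 KO IgG array kept still had a B cell sum of 5176 or 26294. In bulk samples, fewer cells of a type and less RNA per cell cannot be told apart.

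Between Irf4 KO IgG and WT cells, every bright NF-κB probe read higher in the Irf4 KO IgG arrays. Nfkbia, the gene of IκBα, was 1.89-fold higher and Nfkb2, the gene of the p100 precursor, was 1.67-fold and 1.84-fold higher by its 2 probes, and these 3 probes passed the threshold. With PD-L1 and CTLA-4 blockade, Nfkbia was 1.79-fold lower than in Irf4 KO IgG cells and differed from WT by 0.076 on the log2 scale. Nfkb2 in blockade cells lay between the other groups, and Rela, Nfkbib and Nfkbie showed smaller differences that did not pass. Over all bright probes, limma called 144 of 10225 (1.41%) higher and 102 (0.998%) lower in Irf4 KO IgG than in WT cells at an adjusted p under 0.05, against 3 of 8 member probes higher and 0 lower. At an unadjusted p under 0.05 there were 6 of 8 member probes, against 23.3% of all bright probes. Both Irf4 KO IgG arrays lay above both WT arrays for 8 of 8 member probes, against 23.2% of all bright probes. The median member difference was 0.73 on the log2 scale, against -0.018 over all bright probes. These signs hold on scales set by the bright probes, apart from Rela on 1 of them. When arrays were scaled to their 75th percentile instead, which moved the median bright probe by -1.04, all 8 were lower in Irf4 KO IgG than in WT cells, and relative to that shift all 8 lay above it, by 0.039 to 0.98.

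**Figure D1:**
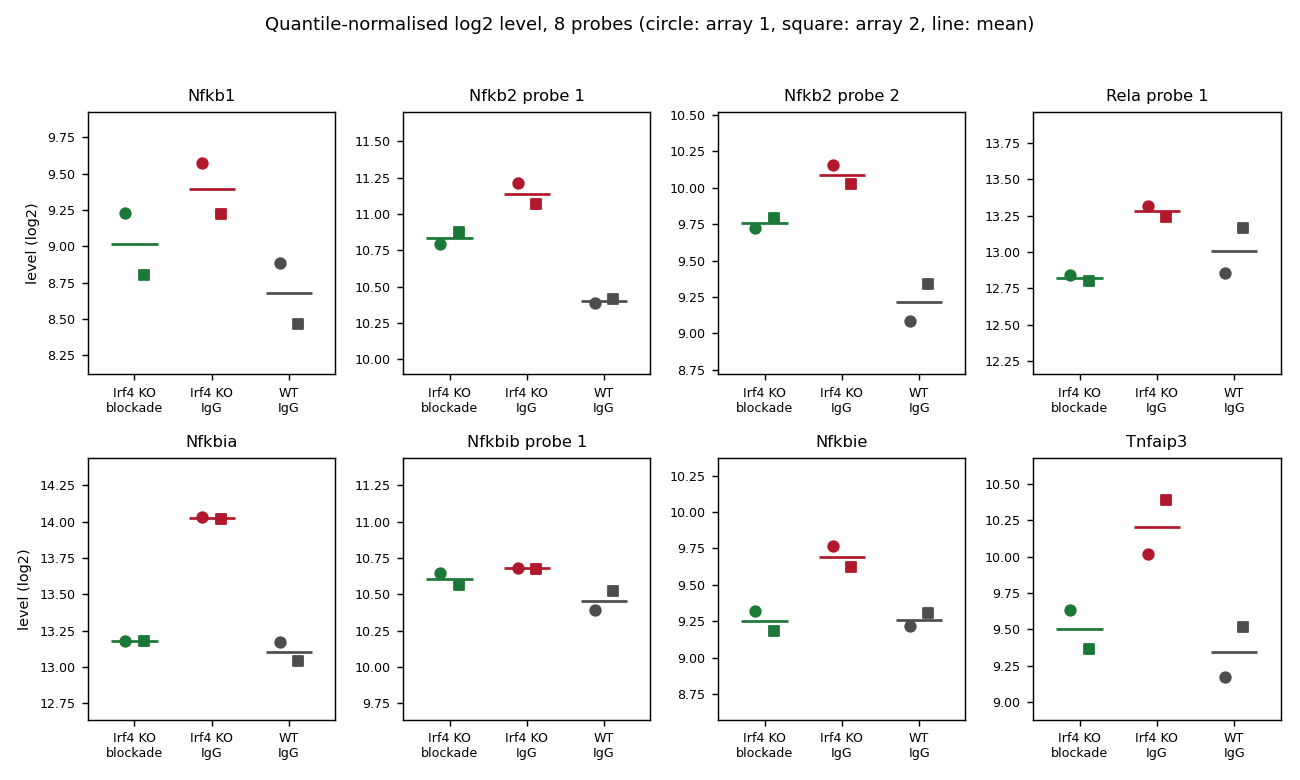
Quantile-normalised log2 level (vertical axis, each panel spanning the same range) of the 8 bright NF-κB probes in Irf4 KO blockade, Irf4 KO IgG and WT IgG cells. Circles are array 1, squares array 2 and lines the mean of the 2 arrays of a group, and in every panel both Irf4 KO IgG points lie above both WT points.

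Of the subunits, Nfkb2 (chr19, p100, processed to the p52 subunit of the noncanonical pathway) gave the clearest difference. Its brighter probe had log2 levels of 10.79 and 10.87 in blockade arrays, 11.21 and 11.06 in Irf4 KO IgG arrays and 10.39 and 10.41 in WT arrays. Its dimmer bright probe read 9.72 and 9.80 in blockade arrays, 10.15 and 10.02 in Irf4 KO IgG arrays and 9.08 and 9.34 in WT arrays. By both probes the 3 groups did not overlap, with Irf4 KO IgG highest, blockade in between and WT lowest. Irf4 KO IgG exceeded WT by 0.74 (SE 0.12, limma adjusted p = 0.0469) and 0.88 (SE 0.14, adjusted p = 0.0468). Blockade differed from Irf4 KO IgG by -0.31 (adjusted p = 0.160) and -0.33 (adjusted p = 0.182), and from WT by 0.43 (adjusted p = 0.145) and 0.55 (adjusted p = 0.132). Within slide row 1 and row 2, each of which held an array of every group, the Irf4 KO IgG difference from WT was 0.65 and 0.83 for the brighter probe and 0.68 and 1.07 for the other. Leaving out any 1 array kept it between 0.68 and 0.82 and between 0.74 and 0.998, but ended the call each time (adjusted p from 0.0673 to 0.211 over both probes).

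Nfkb1 (chr3), which encodes p105 and the p50 subunit that pairs with RelA and c-Rel, varied more between arrays. Its levels were 9.23 and 8.81 in blockade arrays, 9.58 and 9.22 in Irf4 KO IgG arrays and 8.89 and 8.47 in WT arrays. Both Irf4 KO IgG arrays lay above both WT arrays, while the blockade arrays overlapped both groups. Irf4 KO IgG differed from WT by 0.72 (SE 0.23, limma adjusted p = 0.153), blockade from Irf4 KO IgG by -0.38 (adjusted p = 0.316) and blockade from WT by 0.34 (adjusted p = 0.486). Leaving out 1 array gave 0.51 to 0.92, -0.59 to -0.17 and 0.12 to 0.54 for these differences. The interval of the first difference, 0.15 to 1.29, includes the Nfkb2 values.

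Rela (chr19), the main transactivating subunit of the canonical pathway, passed no test with bright probes quantile-normalised. Its bright probe read 12.84 and 12.80 in blockade arrays, 13.32 and 13.24 in Irf4 KO IgG arrays and 12.85 and 13.17 in WT arrays. Irf4 KO IgG differed from WT by 0.27 (95% interval -0.082 to 0.62, limma adjusted p = 0.315) and blockade from Irf4 KO IgG by -0.46 (interval -0.81 to -0.10, adjusted p = 0.118). The blockade arrays lay just below both WT arrays, by 0.19 on average (interval of the difference -0.54 to 0.17, adjusted p = 0.534). With arrays set to the median of their bright probes, the Irf4 KO IgG difference from WT turned to -0.041, and leaving out 1 array gave 0.11 to 0.42.

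Relb (chr7), the partner of p52 in the noncanonical pathway, could be read on 5 of the 6 arrays by its brighter probe. The remaining spot, on WT array 1, was marked non-uniform, with a median signal of 7508 over a local background of 89, against signals of 715 to 2116 over backgrounds of 29 to 39 on the other arrays. With that spot treated as missing, the levels were 10.12 and 9.93 in blockade arrays, 10.50 and 10.47 in Irf4 KO IgG arrays and 9.73 in the remaining WT array. The Irf4 KO IgG arrays were highest and the single WT array lowest. In that fit, of 10316 probes and with 2 residual degrees of freedom for Relb, so that the lone WT array is assumed to vary like the other groups, Irf4 KO IgG differed from WT by 0.75 (SE 0.16, limma adjusted p = 0.0945), blockade from Irf4 KO IgG by -0.45 (adjusted p = 0.119) and blockade from WT by 0.29 (adjusted p = 0.409). The dim Relb probe had usable spots on all arrays. Its intensities were 172 and 111 in blockade arrays, 229 and 322 in Irf4 KO IgG arrays and 112 and 162 in WT arrays. On the unscaled log2 scale Irf4 KO IgG exceeded WT by 1.01, but only 39.9% of dim probes had a smaller difference. Divided by each array's 75th percentile, the probe read 1.24 and 1.07 in Irf4 KO IgG arrays and 1.26 and 1.36 in WT arrays, the other direction. No direction for Relb can be read from this dim probe.

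Rel (chr11), the gene of c-Rel, a subunit prominent in activated lymphocytes, was read by a single dim probe that was well above background on all 6 arrays. Its intensity was 49.3 and 39.8 in blockade arrays, 62.9 and 74.8 in Irf4 KO IgG arrays and 32.2 and 44.4 in WT arrays. Both Irf4 KO IgG arrays were highest, by 0.86 on the unscaled log2 scale over WT, but only 35.4% of dim probes had a smaller difference. Divided by each array's 75th percentile, the difference was -0.34. No direction for Rel can be read from these arrays.

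Of the inhibitors, Nfkbia (chr12) was the member called in both comparisons with Irf4 KO IgG cells. On the scale set by the median of the bright probes its differences were 0.58 and -0.45, nearer 0 than those of Tnfaip3 (0.86 and -0.71) and Nfkb1 (0.81 and -0.46). Its level was 13.18 on each blockade array, 14.03 and 14.02 for the Irf4 KO IgG arrays and 13.17 and 13.04 for the WT arrays. In intensity these were 9023 and 7619 for the blockade arrays, 13392 and 20709 for the Irf4 KO IgG arrays and 8815 and 10157 for the WT arrays. The Irf4 KO IgG arrays stood apart from all 4 others, and the blockade arrays lay within 0.14 of the WT arrays. Irf4 KO IgG exceeded WT by 0.92 (SE 0.11, 95% interval 0.64 to 1.19, limma adjusted p = 0.0304), and blockade was lower than Irf4 KO IgG by a difference of -0.84 (SE 0.11, interval -1.12 to -0.57, adjusted p = 0.0475). Blockade differed from WT by 0.076 (interval -0.20 to 0.35, adjusted p = 0.764). Within slide rows 1 and 2 the difference of Irf4 KO IgG from WT was 0.97 and 0.86, and that of blockade from Irf4 KO IgG was -0.83 and -0.85.

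The B cell sums of the Irf4 KO IgG arrays were 5176 and 26294, against 666 and 617 for the WT arrays, and the part of B cells in the Nfkbia difference was not tested. Without Irf4 KO IgG array 2, which leaves the array with the sum of 5176, Nfkbia was 0.94 higher than in WT cells (adjusted p = 0.0598) and blockade was -0.86 from Irf4 KO IgG (adjusted p = 0.0489). Leaving out any 1 array kept the first difference between 0.86 and 0.97 and the second between -0.86 and -0.83, with adjusted p from 0.0598 to 0.140 and from 0.0489 to 0.351. The call against WT also ended with the slide row as a block (adjusted p = 0.0546), the replicate number as a block (adjusted p = 0.0643), the 4 arrays of the comparison fitted alone (adjusted p = 0.111) and arrays set to the median of their bright probes (0.58, adjusted p = 0.0693). The fall with blockade passed in 4 of 21 other settings. It missed narrowly with the median dim intensity of each array subtracted (-0.84, adjusted p = 0.0501) and with the slide row as a block (adjusted p = 0.0596).

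Tnfaip3 (chr10), whose product A20 edits ubiquitin chains on signalling complexes upstream of IκB, followed the same order with a wider spread. Its levels were 9.63 and 9.37 in blockade arrays, 10.02 and 10.39 in Irf4 KO IgG arrays and 9.17 and 9.52 in WT arrays. Both Irf4 KO IgG arrays were above all others, and blockade and WT overlapped. Irf4 KO IgG differed from WT by 0.86 (SE 0.20, limma adjusted p = 0.0880), blockade from Irf4 KO IgG by -0.70 (SE 0.20, adjusted p = 0.104) and blockade from WT by 0.16 (adjusted p = 0.715). Without Irf4 KO IgG array 2 the first difference was 0.68 (adjusted p = 0.160).

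Nfkbie (chr17), the gene of IκBε, had levels of 9.32 and 9.18 in blockade arrays, 9.76 and 9.62 in Irf4 KO IgG arrays and 9.22 and 9.31 in WT arrays. Irf4 KO IgG was above both other groups, which overlapped. It differed from WT by 0.43 (SE 0.12, limma adjusted p = 0.129), and blockade differed from it by -0.44 (adjusted p = 0.102) and from WT by -0.011 (interval -0.32 to 0.30, adjusted p = 0.975).

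Nfkbib (chr7), the gene of IκBβ, passed no test with bright probes quantile-normalised. Its levels were 10.65 and 10.56 in blockade arrays, 10.68 and 10.67 in Irf4 KO IgG arrays and 10.39 and 10.52 in WT arrays. Irf4 KO IgG differed from WT by 0.22 (interval -0.063 to 0.51, limma adjusted p = 0.308), and blockade differed from Irf4 KO IgG by -0.074 (interval -0.36 to 0.21, adjusted p = 0.691) and from WT by 0.15 (adjusted p = 0.541). Its promoter held no κB match, nor did those of Rela and Nfkbie, and the part of κB matches in the member differences was not tested.

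Nfkbiz (chr16), which encodes the nuclear IκBζ, was read by 2 dim probes. The brighter had intensities of 49.5 and 22.4 in blockade arrays, 479 and 422 in Irf4 KO IgG arrays and 45.7 and 99.9 in WT arrays. The other read 35.1 and 19.3 in blockade arrays, 70.9 and 101 in Irf4 KO IgG arrays and 37.5 and 60.2 in WT arrays. Each was well above background on 1 of the 2 blockade arrays and on all other arrays. The brighter probe differed between Irf4 KO IgG and WT by 2.73 on the unscaled log2 scale, more than 74.6% of dim probes did, and by 1.53 after division by each array's 75th percentile. For the other probe the same figures were 0.84, 34.8% and -0.36, so the probes disagreed in direction on the second scale.

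Across the 6 dim member probes, both Irf4 KO IgG arrays lay above both WT arrays for 5, against 63.1% of 45146 dim probes, and both blockade arrays lay below both Irf4 KO IgG arrays for 4, against 69.5%. Their median unscaled difference was 0.93 between Irf4 KO IgG and WT and -0.81 between blockade and Irf4 KO IgG, against 1.403 and -1.72 over all dim probes. The median over the dim members was thus nearer 0 than that of the class. Rela and Nfkbib, each with a bright and a dim probe, had unscaled dim-probe differences of 0.99 and 0.56 between Irf4 KO IgG and WT.

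**Figure D2:**
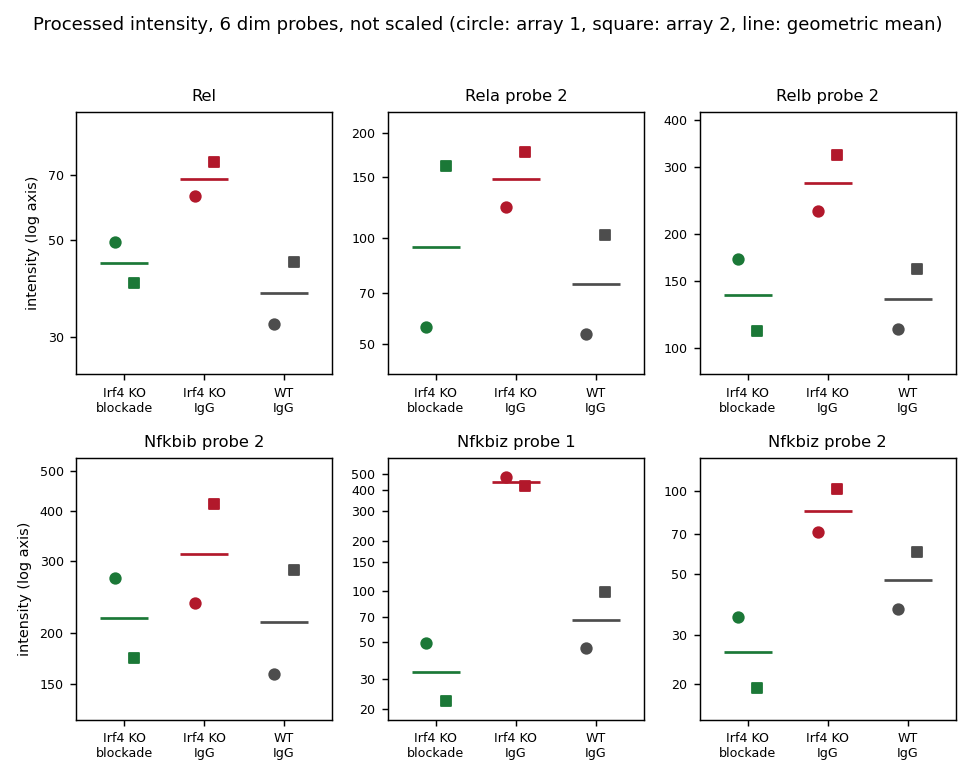
Processed intensity (vertical log axis, not scaled between arrays) of the 6 dim NF-κB probes in Irf4 KO blockade, Irf4 KO IgG and WT IgG cells. Circles are array 1, squares array 2 and lines geometric means, and the brighter Nfkbiz probe stands at 479 and 422 in Irf4 KO IgG arrays, against 45.7 and 99.9 in WT arrays.

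Seen by comparison, blockade against Irf4 KO IgG gave negative differences for all 8 bright member probes, from -0.84 to -0.074. In limma 1 probe, Nfkbia, was called lower and 0 higher, against 47 of 10225 bright probes (0.460%) called lower and 45 (0.440%) called higher. At an unadjusted p under 0.05 there were 5 of 8, against 28.6% of all bright probes. Both blockade arrays lay below both Irf4 KO IgG arrays for 7 of 8, the exception being Nfkb1, against 28.3% of all bright probes. The median was -0.41, against 0.031 over all bright probes. The 12 T cell identity genes were also all negative in this comparison, with a median of -0.29, 3 at an unadjusted p under 0.05 and 0 past the threshold, and their part in the member differences was not tested. On the 75th percentile scale, which moved the median bright probe by 1.09, all 8 differences were positive and all 8 lay below that median, by 0.066 to 0.80. The Irf4 KO IgG arrays enter both this comparison and the one with WT, so the opposite signs are not separate observations.

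Blockade against WT, a comparison in which the Irf4 KO IgG arrays enter only the normalisation, the choice of bright probes and the estimate of the spread, gave differences of -0.19 to 0.55, with Nfkb2 at the upper end. In limma 0 of 8 bright probes passed, with 2 of 8, both of Nfkb2, at an unadjusted p under 0.05, against 19.0% of all bright probes. Over all bright probes 45 (0.440%) were called higher and 29 (0.284%) lower. Both blockade arrays lay above both WT arrays for 4 of 8, against 27.7% of all bright probes, and below them for Rela. The median was 0.15, against 0.00060 over all bright probes.

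**Figure D3:**
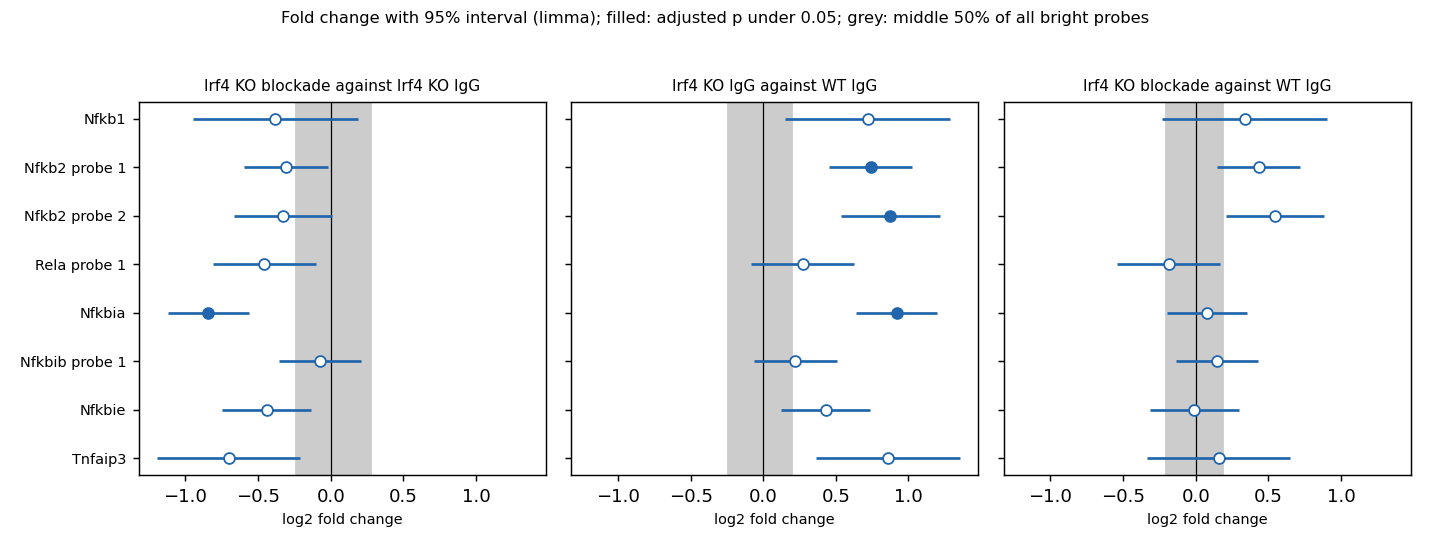
Log2 fold change (horizontal axis) of the 8 bright NF-κB probes with 95% intervals from limma in blockade against Irf4 KO IgG, Irf4 KO IgG against WT and blockade against WT. Filled points have an adjusted p under 0.05 (Nfkbia in the first, Nfkbia and both Nfkb2 probes in the second, none in the third), and grey marks the middle 50% of all bright probes.

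Upstream of the subunits, the list of receptors and ligands that signal to NF-κB had 15 of 31 genes with a bright probe. Between Irf4 KO IgG and WT, 2 of the 15 were called higher and 1 lower, against 1.41% and 0.998% of all bright probes. At an unadjusted limma p under 0.05 there were 8 of 15 (23.3% of all bright probes), and the list median was 0.23. Tnfrsf9, the costimulatory receptor 4-1BB, read 846 and 716 in blockade arrays, 1326 and 2427 in Irf4 KO IgG arrays and 108 and 391 in WT arrays, 2.81 (log2) higher in Irf4 KO IgG than in WT (SE 0.39, limma adjusted p = 0.0398). Lta, the gene of lymphotoxin α, read 324 and 251 in blockade arrays, 557 and 1056 in Irf4 KO IgG arrays and 270 and 312 in WT arrays, and was 1.05 higher (SE 0.16, adjusted p = 0.0468). Tnf moved the other way, at 246 and 180 in blockade arrays, 232 and 390 in Irf4 KO IgG arrays and 389 and 616 in WT arrays, a log2 difference of -1.12 for Irf4 KO IgG against WT (SE 0.13, adjusted p = 0.0285). With 1 array left out Tnfrsf9 ranged from 2.16 to 3.39 (adjusted p from 0.0137 to 0.122) and passed only without WT array 2, Tnf ranged from -1.21 to -1.01 (adjusted p from 0.0472 to 0.121) and passed only without Irf4 KO IgG array 2, and Lta ranged from 0.89 to 1.24 and never passed (adjusted p from 0.0590 to 0.172). Between blockade and Irf4 KO IgG none of the 15 passed (2 at an unadjusted p under 0.05, against 28.6% of all bright probes), and Lta had the smallest p (-0.76, adjusted p = 0.0768). Between blockade and WT none passed either (8 of 15 at an unadjusted p under 0.05, against 19.0% of all bright probes), with Tnf at -0.87 (adjusted p = 0.0566). On the 75th percentile scale Tnfrsf9 and Lta kept their direction between Irf4 KO IgG and WT, while Lta turned positive between blockade and Irf4 KO IgG (0.12).

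The kinases, adaptors and ubiquitin ligases that link receptors to IκB gave no call. Of 28 genes, 21 had a bright probe and 0 passed limma's threshold in any comparison, with 2, 6 and 3 of 21 at an unadjusted p under 0.05 between Irf4 KO IgG and WT, blockade and Irf4 KO IgG, and blockade and WT, where all bright probes gave 23.3%, 28.6% and 19.0%. The list medians were 0.088, -0.16 and -0.13. Ube2n, an enzyme that builds the ubiquitin chains used in this signalling, had the smallest p in the first comparisons, at -0.41 between Irf4 KO IgG and WT (adjusted p = 0.132) and 0.41 between blockade and Irf4 KO IgG (adjusted p = 0.108). Between blockade and WT it was Myd88, an adaptor of Toll-like and IL-1 receptors, at -0.44 (adjusted p = 0.192).

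Of 20 further restraints and nuclear IκB proteins, 14 had a bright probe and 0 passed in any comparison (7, 4 and 4 of 14 at an unadjusted p under 0.05 in limma, against 23.3%, 28.6% and 19.0% of all bright probes), with medians of 0.21, -0.26 and 0.10. Nfkbid, a nuclear IκB family gene, read 1687 and 1550 in blockade arrays, 2221 and 4567 in Irf4 KO IgG arrays and 1384 and 1956 in WT arrays, a difference of 0.85 between Irf4 KO IgG and WT (adjusted p = 0.0675). Cyld, a deubiquitinase that limits the pathway, had the smallest p between blockade and Irf4 KO IgG (-0.68, adjusted p = 0.0734). Tnip2, an A20-binding protein, had it between blockade and WT (-0.64, adjusted p = 0.0714).

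Downstream, 19 of the 35 NF-κB target genes with a probe were bright and 0 passed in any comparison (7, 2 and 7 of 19 at an unadjusted p under 0.05 in limma, against the same 23.3%, 28.6% and 19.0%). Their medians were 0.082, 0.015 and 0.14, against 0.73, -0.41 and 0.15 for the member probes. Of the 19, 11, 10 and 13 differences were positive, against 47.6%, 53.3% and 50.1% of all bright probes. Ccl5, a chemokine gene, was the most distant by p, at 906 and 521 in blockade arrays, 768 and 2380 in Irf4 KO IgG arrays and 4072 and 3991 in WT arrays, with differences of -1.74 between Irf4 KO IgG and WT (adjusted p = 0.0787) and -2.15 between blockade and WT (adjusted p = 0.0759). Cflar, the gene of the apoptosis inhibitor c-FLIP, had the smallest p between blockade and Irf4 KO IgG (-0.50, adjusted p = 0.0868).

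**Figure D4:**
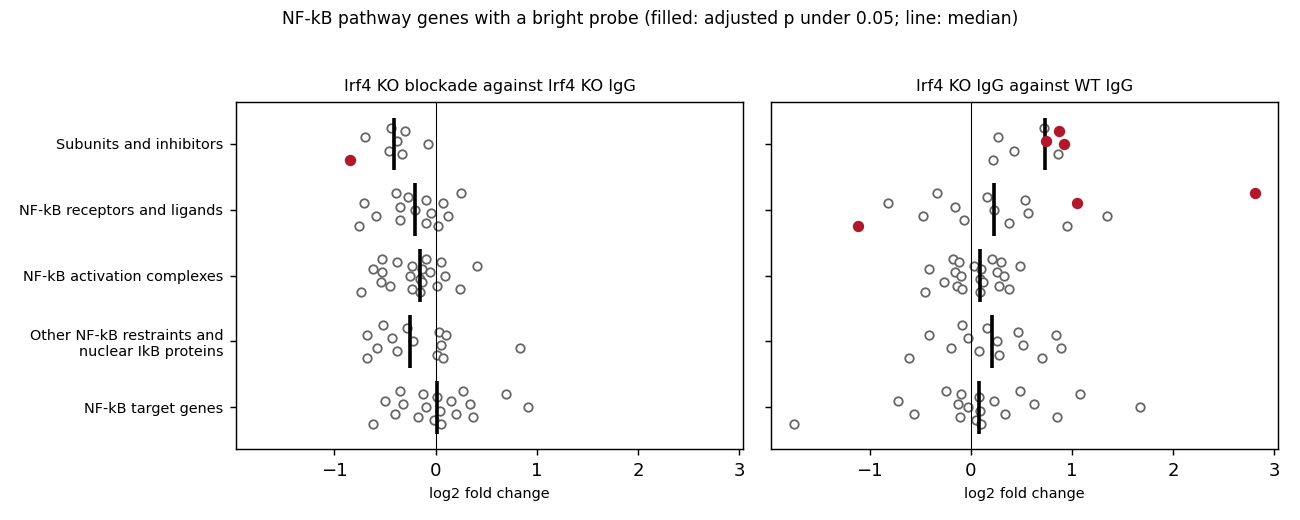
Log2 fold change (horizontal axis) of each NF-κB pathway gene with a bright probe, by list, in blockade against Irf4 KO IgG and Irf4 KO IgG against WT. Points are genes (probes in the top row), filled where the adjusted p was under 0.05, and black lines are list medians, which for the subunits and inhibitors lie at -0.41 and 0.73.

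For the 3 members with the smallest p between Irf4 KO IgG and WT, the 3 genes with the most similar levels over the 6 arrays were listed, among 6701 genes by their brightest bright probe. The measure was Pearson's r over 6 arrays in 3 groups, which mainly ranks genes by how the groups are ordered. Nfkbia was most like Lrp10 (r = 0.995), Vps11 (0.991) and Glyctk (0.990). By its brighter probe, Nfkb2 was most like Pheta1 (0.991), Izumo1r (0.987) and Serp1 (0.986), and by its dimmer bright probe Rcc2 (0.996), Ms4a4c (0.995) and Urgcp (0.992), so the genes named depend on the probe. Tnfaip3 was most like Uvrag (0.997), Brd2 (0.992) and Rnf19a (0.991). Likeness did not mean an equal size of difference: Lrp10 was 0.53 higher in Irf4 KO IgG than in WT by the fitted difference, against 0.92 for Nfkbia.

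How the calls for Nfkbia and Nfkb2 depended on the settings is drawn for every alternative.

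**Figure D5:**
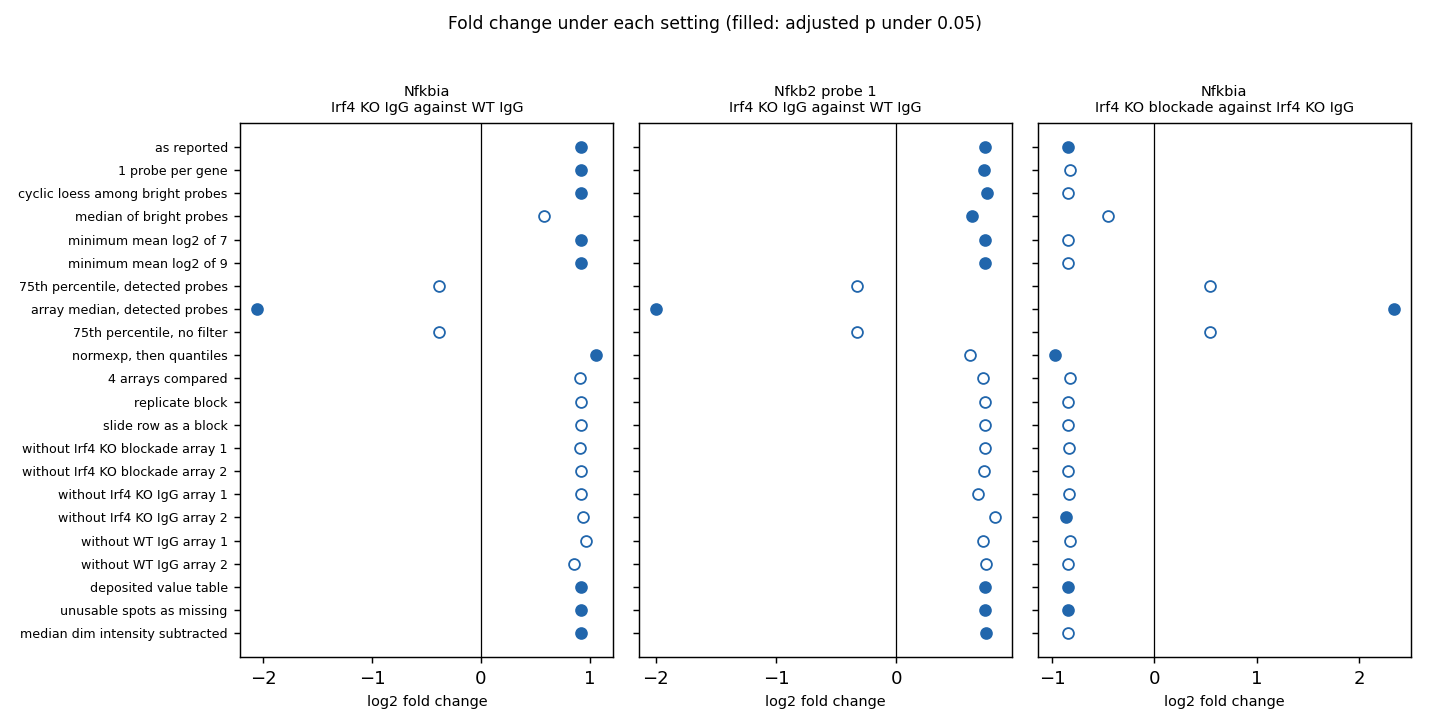
Log2 fold change (horizontal axis) under each setting (rows) for Nfkbia and the brighter Nfkb2 probe between Irf4 KO IgG and WT and for Nfkbia between blockade and Irf4 KO IgG. Filled points have an adjusted p under 0.05. Nfkbia lies nearer 0 with arrays set to the median of their bright probes (0.58 and -0.45), and the sign turns on the scales set by all probes (75th percentile and array median).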

How the data were processed

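RNA of 6 samples, 2 each of Irf4 KO blockade, Irf4 KO IgG and WT IgG TEa cells, was hybridised to 1-colour Agilent arrays on 1 slide. Per the file headers the scans were read with Feature Extraction 11.0.1.1 (protocol GE1_1100_Jul11, design built on mm9), while version 9.1 is the one in the submitters' processing notes. The deposited arrays hold processed intensity per spot after background subtraction by that software, and no spot was saturated. The authors' deposited value table holds the same signals as a ratio to 1 number per array, for 100% of probes within a tolerance of 0.001.

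Control spots and spots marked as outliers were left out, and 1234 of 56605 probes had no usable spot on some array. Probes were named through RefSeq accessions (32994 probes, 22911 symbols). The 10225 probes whose log2 intensity averaged 8 or more (256 in intensity) were called bright, quantile-normalised among themselves and tested with limma 3.58.1 in R 4.3.3 (lmFit and eBayes, 3 groups together, Benjamini-Hochberg adjustment over all 10225, threshold 0.05). The other 45146 probes are given as unscaled intensities. The number of arrays limits the precision. The procedure was tested on simulated data. The members and gene lists were chosen with earlier results of these data known. Named are all members, Irf4, the genes of each list past the threshold, the gene of each NF-κB list with the smallest p in a comparison, and the 3 genes most like each of 3 members. Siglech, S100a9 and Cd8b1 are named besides, as parts of their marker lists. Besides the NF-κB lists, marker lists were summed per array for T cell identity, plasma cells, B cells, dendritic cells, erythroid cells with platelets, CD8 T with NK cells, and neutrophils with monocytes and macrophages, and immediate early genes were tested. The replicate numbers do not pair the samples by the labels. Other settings numbered 21, of which 2 were chosen after seeing the data, unusable spots as missing values and subtraction of the median dim intensity.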

Additional observations from a re-analysis of the deposited data

How the results depend on the processing

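A limit is 2 arrays a group with brighter weak probes on both Irf4 KO IgG arrays, so signs depend on which probes set the scale. The calls for Nfkbia and Nfkb2 lie close to the threshold: over 21 other settings Nfkbia passed in the same direction in 8 between Irf4 KO IgG and WT and in 4 between blockade and Irf4 KO IgG, and the brighter Nfkb2 probe in 8 between Irf4 KO IgG and WT. In both comparisons every bright member probe also passed with its sign reversed, in 1 or 2 of the settings. For Nfkbia this was 1 setting in each comparison. No bright member passed between blockade and WT in any setting. Low intensity limits Rel and Nfkbiz, whose probes all averaged below the bright limit and have no tested value. Where a value changed, the cause was not tested.

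On the 75th percentile scale, with or without the filter on detected probes, the Irf4 KO IgG difference from WT was -0.15 for Nfkb1, -0.33 and -0.067 for the Nfkb2 probes, -1.00 for Rela, -0.39 for Nfkbia, -0.82 for Nfkbib, -0.48 for Nfkbie, -0.10 for Tnfaip3 and -0.25 for Nfkbid. That of blockade from Irf4 KO IgG was 0.53 for Nfkb1, 0.82 and 0.66 for Nfkb2, 0.87 for Rela, 0.55 for Nfkbia, 1.02 for Nfkbib, 0.49 for Nfkbie, 0.29 for Tnfaip3, 0.12 for Lta, 0.34 for Cyld and 0.51 for Cflar, and Nfkbie was 0.0091 between blockade and WT. With array medians, which moved the median bright probe by -2.71 and 2.88, the first difference was -1.82 for Nfkb1, -2.00 and -1.73 for Nfkb2, -2.67 for Rela, -2.05 for Nfkbia, -2.49 for Nfkbib, -2.15 for Nfkbie, -1.77 for Tnfaip3, -1.92 for Nfkbid, -1.47 for Lta, -1.32 for Nkg7 and -1.28 for Irf4. The second was 2.32 for Nfkb1, 2.61 and 2.44 for Nfkb2, 2.66 for Rela, 2.33 for Nfkbia, 2.81 for Nfkbib, 2.28 for Nfkbie, 2.08 for Tnfaip3, 1.91 for Lta, 2.13 for Cyld and 2.30 for Cflar, and Nfkbie was 0.13 between blockade and WT. Medians of bright probes turned Rela to -0.041 between Irf4 KO IgG and WT and Nfkbib to 0.028 between blockade and Irf4 KO IgG. Leaving out 1 array gave -0.082 to 0.058 for Nfkbie and -0.015 to 0.33 for Tnfaip3 between blockade and WT.

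The count of bright probes past the threshold between Irf4 KO IgG and WT, 246 (144 higher, 102 lower), was 160 with 1 probe per gene, 429 with medians of bright probes, 90 with a minimum mean log2 of 9, 19695 and 12132 on the 75th percentile scale with and without the filter, 22973 (3628 higher, 19345 lower) with array medians, 6 with the 4 arrays alone, 68 with the replicate block, 94 with the slide row as a block and 5 to 151 with 1 array left out. Between blockade and Irf4 KO IgG the count of 92 (45 higher, 47 lower) was 28, 939 (623 higher, 316 lower), 17, 19830, 13183, 22456 (19470 higher, 2986 lower), 0, 60, 0 and 0 to 405 in the same order of settings, 27 with cyclic loess and 34 with the median dim intensity subtracted. Between blockade and WT the count of 74 was 160 with cyclic loess, 148 with medians of bright probes, 0 on the 3 scales set by all probes, 124 with normexp (63 higher, 61 lower, against 45 and 29), 122 with the 4 arrays alone, 27 with the slide row and 0 to 128 with 1 array left out. The correlation of deviations between same-numbered arrays was 0.039, 0.050 and -0.18 over the 3 comparisons, and the replicate block ended the calls for Nfkbia (adjusted p = 0.0643 and 0.0670) and for both Nfkb2 probes (0.0944 and 0.0893).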
